A study of Mus musculus with 12 samples.

Results

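The genes described are 7 receptors of the tumour necrosis factor (TNF) receptor superfamily: Cd27, Tnfrsf9 (4-1BB), Tnfrsf4 (OX40), Tnfrsf18 (GITR), Tnfrsf25 (DR3), Tnfrsf1b (TNFR2) and Fas. They were chosen by name, and all 7 were found among the 25899 gene symbols of the count table and were among the 12622 genes with enough reads to be tested. RNA was sequenced from intraepithelial lymphocytes (IEL), the lymphocytes that lie between the epithelial cells of the small intestine, sorted from Rag2-/- mice 1 week after an intravenous transfer of lymph node T cells. The transferred cells were conventional CD4+ or CD8αβ+ T cells of Themis WT donors, and the genotype label of all samples is WT. From hosts of CD4+ cells, TCRβ cells bearing CD4 (CD4 IEL) or CD8αα (CD8αα from CD4) were sorted, and from hosts of CD8αβ+ cells, those bearing CD8αβ (CD8αβ IEL) or CD8αα (CD8αα from CD8αβ), with 3 libraries in each of the 4 groups. Rag2-/- hosts lack endogenous T and B cells but keep innate lymphocytes, and the transferred cells expand in a host without other T cells, so no group is an IEL of an unmanipulated mouse. Whether the libraries of a group came from different mice is not stated in the labels. The p-values therefore measure no more than the spread between these libraries, which may be technical.

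Receptors of this superfamily bind trimeric ligands at the cell surface. Most of them recruit TRAF adaptors, which activate NF-kappaB and support the survival and division of T cells after antigen contact. Receptors with a death domain, here Fas and Tnfrsf25, recruit FADD or TRADD, and Fas can start apoptosis through caspase-8.

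Libraries held 5620257 to 11070734 counts, and a count of 0 allows a level of up to 0.271 to 0.534 CPM, the counts scaled to an equal library total. The coreceptor transcripts followed the labels: Cd4 had a mean of 1640 CPM in CD4 IEL and at most 23.2 CPM elsewhere, Cd8a 2159 to 2965 CPM in the CD8 groups and 47.2 CPM in CD4 IEL, and Cd8b1 1123 CPM in CD8αβ IEL and at most 17.4 CPM elsewhere. The T cell label did not hold as well for the libraries labelled CD8αα. The summed level of 7 T cell genes (Cd3e, Cd3d, Cd247, Cd5, Cd2, Cd6 and Lat) was 4608 to 5135 CPM in CD4 IEL and 4111 to 4904 CPM in CD8αβ IEL, but 77.9 to 145.8 CPM in CD8αα from CD4 and 100.4 to 126 CPM in CD8αα from CD8αβ. All 7 were lower in both CD8αα groups by the test used below. The sum of 7 natural killer and innate lymphoid genes (Ncr1, Klrb1c, Eomes, Klre1, Fcer1g, Tyrobp and Kit) was higher, from 144 to 249.8 CPM in CD4 IEL to 2869 to 3523 CPM in CD8αα from CD4, and from 246 to 446 CPM in CD8αβ IEL to 3153 to 5542 CPM in CD8αα from CD8αβ. Fcer1g and Tyrobp, with means of 1110 and 1655 CPM in CD8αα from CD4 and 1682 and 2219 CPM in CD8αα from CD8αβ, made up most of it. In each progeny 4 of the 7 rose and 1 fell, which was Eomes, a transcription factor of natural killer cells, from 3.17 to 0.156 CPM in CD4 progeny and from 57.05 to 0.249 CPM in CD8αβ progeny. Klrb1c went from a mean of 15.8 to 204.5 CPM in CD4 progeny and from 8.02 to 332 CPM in CD8αβ progeny. The defining receptor Ncr1 was at most 4.26 CPM in any CD8αα library. CD4 IEL held Ncr1 at 4.04 to 7.17 CPM and CD8αβ IEL held 0 reads of it. Ncr1 was among the 4 genes that rose in CD8αβ progeny (adjusted p = 0.0284 by the test used below). Sums of 10 epithelial genes were 108 to 205 CPM (CD4 IEL) against 457 to 565 CPM (CD8αα from CD4), and 251 to 507 CPM (CD8αβ IEL) against 587 to 784 CPM (CD8αα from CD8αβ). Cdh1 and Epcam carried most of these rises. Of the 10, 2 rose in CD4 progeny and 4 in CD8αβ progeny and 0 fell, with list medians of 1.01 and -0.20. The myeloid sums (7 genes) were at most 97.4 CPM in the companions and 176 to 284 CPM in the CD8αα groups. Itgam carried that rise (8.97 to 241 CPM and 2.66 to 194 CPM), while 1 myeloid gene rose and 0 fell in CD4 progeny and 1 rose and 3 fell in CD8αβ progeny, with list medians of -0.84 and -1.59 and Fcgr1 at 0 in both CD8αα groups. Of the 6 libraries labelled CD8αα, 4 held next to no Y-linked transcripts and had Xist at 373 to 644 CPM (0 to 36.4 CPM in the other 8 libraries), and the other 2 (replicate 3 for CD4 progeny, replicate 2 for CD8αβ progeny) held them at the level of the 6 CD4 IEL and CD8αβ IEL libraries. The part of these differences in the results on the receptors was not tested, and results are also given with only these 2 CD8αα libraries, a fit in which each lone library is assumed to vary like the other groups. In bulk RNA, fewer cells that express a gene and less RNA per cell cannot be told apart. Below, CD4 progeny and CD8αβ progeny are names taken from the labels, and descent from the transferred cells was not tested.

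Levels are deposited counts as CPM of TMM-scaled library totals, given for replicates 1, 2 and 3 in that order. Changes are log2 fold changes ± SE from edgeR's quasi-likelihood test on all 12 libraries, with Benjamini-Hochberg adjusted p over all genes tested and a gene called at an adjusted p under 0.05.

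In CD8αα from CD4 against CD4 IEL, 2 of the 7 receptors rose (Tnfrsf9 and Cd27), 4 fell (Tnfrsf4, Tnfrsf25, Fas and Tnfrsf1b) and Tnfrsf18 was not called. Over all genes tested, 15.0% rose and 13.5% fell in that comparison. The libraries of the 2 groups did not overlap for 6 receptors, against 45.7% of all genes. In CD8αα from CD8αβ against CD8αβ IEL, 1 receptor rose (Tnfrsf9) and 4 fell (Cd27, Tnfrsf4, Tnfrsf25 and Fas), where 16.1% of all genes rose and 15.1% fell. Libraries did not overlap for all 7, against 43.8% of all genes. The median change of the 7 was -0.52 in the first comparison and -1.39 in the second, while over all genes it was 0.02 and 0.00. With only the 2 CD8αα libraries that held Y-linked transcripts, 4 receptors were called in each of these comparisons, where 9.56% and 10.6% of all genes were called.

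**Figure D1:**
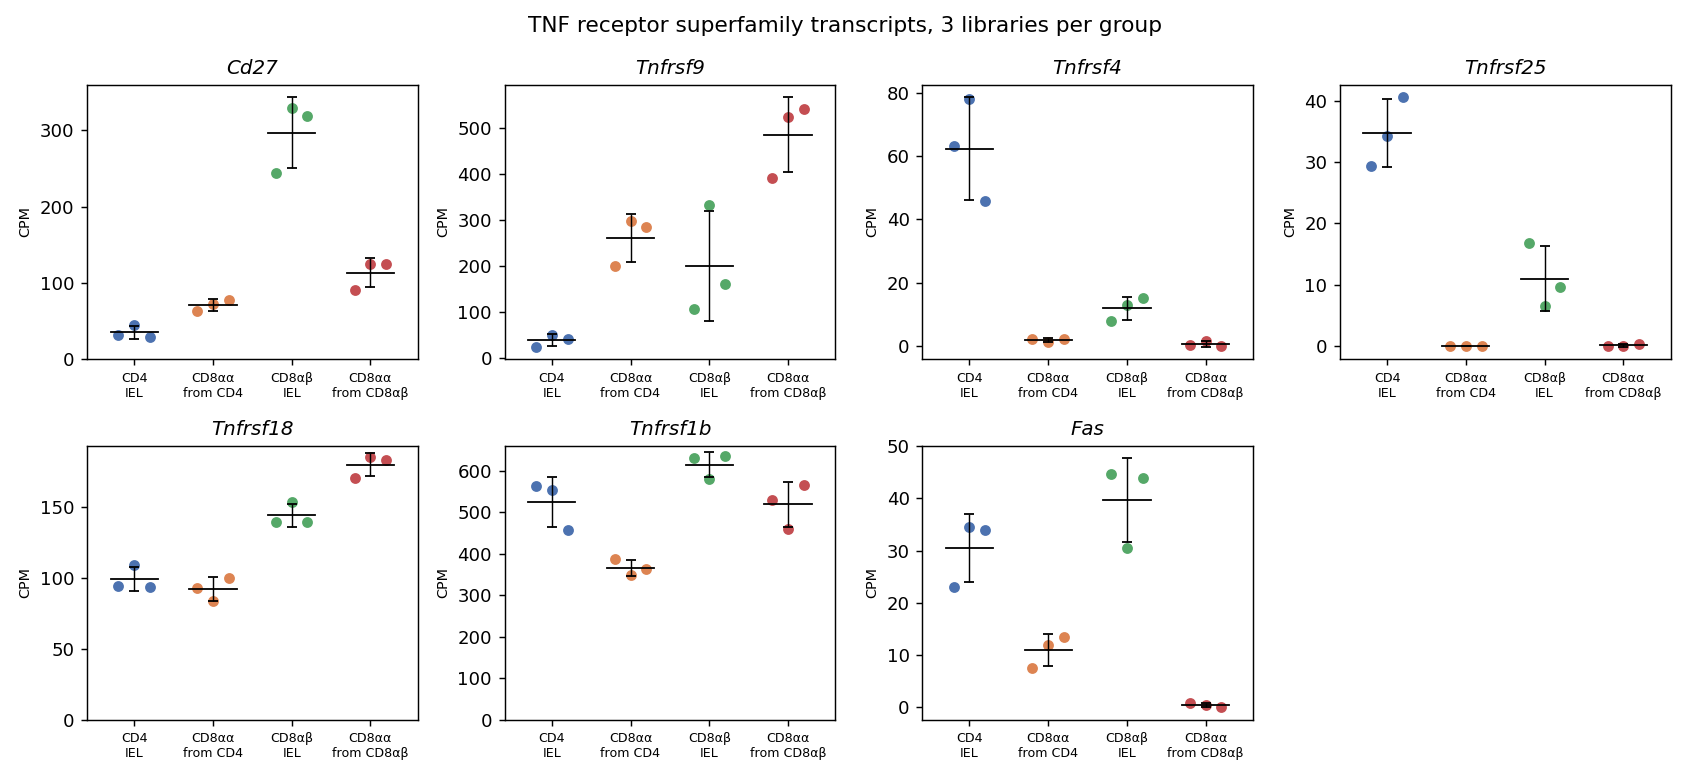
Level of each receptor (CPM, linear axis that includes 0) in the 4 groups; points are libraries, the long line is the mean and the bar is the SD of 3 libraries. Cd27 was highest in CD8αβ IEL, Tnfrsf9 in CD8αα from CD8αβ, and Tnfrsf4 and Tnfrsf25 in CD4 IEL.

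**Figure D2:**
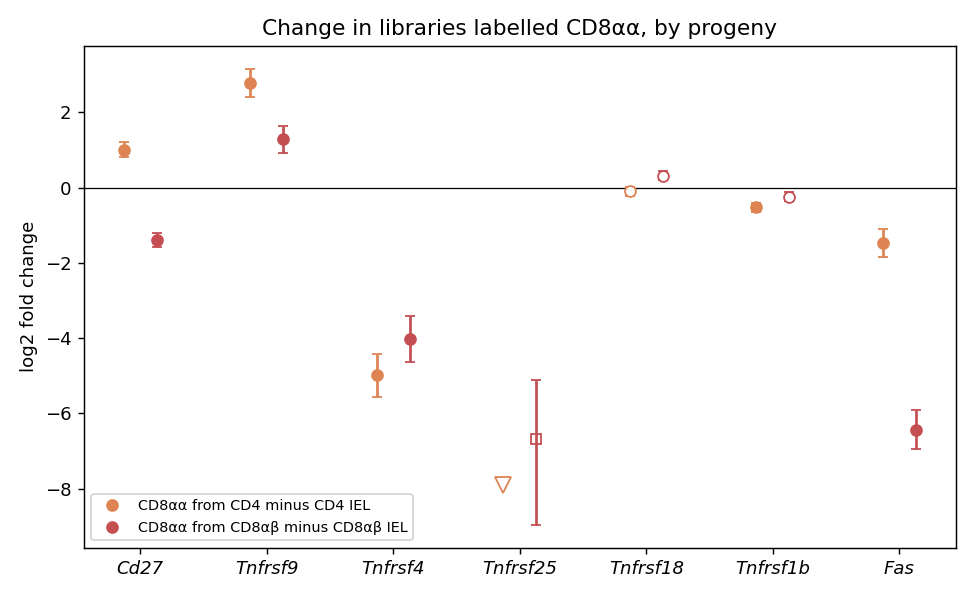
Change of each receptor in the 2 groups labelled CD8αα against the CD4 IEL or CD8αβ IEL of the same progeny (log2 fold change, bars are SE). Filled circles passed the test and open circles did not; for Tnfrsf25 the open triangle is a bound (at least 239-fold lower) and the open square a ratio of 102 with its 95% counting interval.

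Cd27 (ENSMUSG00000030336, chr6:125232622-125237010, minus strand, mm10) encodes the receptor of CD70, a costimulator that is present on resting T cells. In CD4 IEL its level was 32.1, 44.7 and 28.6 CPM, and in CD8αα from CD4 it was 62.6, 72.8 and 77.0 CPM. In CD8αβ IEL it was 244, 329 and 319 CPM, and in CD8αα from CD8αβ it was 91.2, 124 and 125 CPM. The order was CD8αβ IEL, CD8αα from CD8αβ, CD8αα from CD4 and CD4 IEL, with no overlap between neighbours. Cd27 was therefore higher in the CD8αα libraries than in the companion cells for CD4 progeny and lower for CD8αβ progeny. The change was 1.01 ± 0.20 (adjusted p = 0.00168) for CD4 progeny and -1.39 ± 0.19 (adjusted p = 9.7e-05) for CD8αβ progeny. The 2 changes differed by 2.40 ± 0.28 (adjusted p = 0.000424, interaction term), and this term was called for 2 receptors and for 2.56% of all genes. With only the 2 CD8αα libraries holding Y-linked transcripts the changes were 1.13 (adjusted p = 0.0354) and -1.25 (adjusted p = 0.0334), and their difference of 2.39 was not called (adjusted p = 0.119). Cd27 lies within Vamp1 on the other strand, and whether reads were counted by strand is not given in the sources used here. Vamp1 fell by 0.84 ± 0.19 in CD8αα from CD4 (adjusted p = 0.0038), opposite to Cd27, and its value in CD8αβ progeny was -0.23 (adjusted p = 0.375), with the sign of Cd27.

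Tnfrsf9 (ENSMUSG00000028965, chr4:150914562-150946102, plus strand) encodes 4-1BB, a costimulator induced on activated T cells and also on natural killer cells. It was the receptor that rose in both CD8αα groups. Its level was 23.9, 50.1 and 40.0 CPM in CD4 IEL and 199.6, 296 and 284 CPM in CD8αα from CD4. It was 105, 333 and 160 CPM in CD8αβ IEL, where replicate 2 stood above the others, and 392, 523 and 540.5 CPM in CD8αα from CD8αβ. Of the 7 innate genes, Tyrobp, Fcer1g and Klre1 were also highest in that replicate 2 of CD8αβ IEL, at 165, 58.3 and 70.3 CPM. The other 2 replicates held at most 33.7, 18.4 and 12.2 CPM of them. Klrb1c, Eomes and Kit were instead lowest in replicate 2 (7.07, 54.5 and 91.0 CPM), and Ncr1 had 0 reads in the group. The part of these genes in its Tnfrsf9 level was not tested. No library of either CD8αα group fell within the range of its companions, while CD8αα from CD4 overlapped CD8αβ IEL. The change was 2.78 ± 0.38 (adjusted p = 9.34e-05) for CD4 progeny and 1.28 ± 0.35 (adjusted p = 0.0135) for CD8αβ progeny. The latter call ended without CD8αβ IEL replicate 3 (1.08, adjusted p = 0.0672) and the value moved to 1.87 (adjusted p = 0.000281) without CD8αβ IEL replicate 2. The changes of the 2 progenies differed by 1.5 and this was not called (adjusted p = 0.138). With only the libraries holding Y-linked transcripts the changes were 2.91 (adjusted p = 0.00755) and 1.39 (adjusted p = 0.14). Tnfrsf9 overlaps Camta1 on the other strand, which was not called in either comparison (adjusted p = 0.355 and 0.208).

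Tnfrsf9 has 2 transcript starts in RefSeq (GRCm38.p6), and the 300 bases around each (250 before, 50 after) are shown because it was the receptor that rose in both progenies. Capitals mark matches, on either strand, to an NF-kappaB motif, to the AP-1 motif TGANTCA and to the RUNX motif TGTGGT. The first window is chr4:150919905-150920204 and the second chr4:150927749-150928048, both on the plus strand.
Tnfrsf9 first start: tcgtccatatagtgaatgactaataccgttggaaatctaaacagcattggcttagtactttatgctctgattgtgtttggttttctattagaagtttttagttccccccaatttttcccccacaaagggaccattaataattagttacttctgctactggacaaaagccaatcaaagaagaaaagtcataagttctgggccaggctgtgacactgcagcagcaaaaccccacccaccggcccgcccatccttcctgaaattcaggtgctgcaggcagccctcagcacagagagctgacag
Tnfrsf9 second start: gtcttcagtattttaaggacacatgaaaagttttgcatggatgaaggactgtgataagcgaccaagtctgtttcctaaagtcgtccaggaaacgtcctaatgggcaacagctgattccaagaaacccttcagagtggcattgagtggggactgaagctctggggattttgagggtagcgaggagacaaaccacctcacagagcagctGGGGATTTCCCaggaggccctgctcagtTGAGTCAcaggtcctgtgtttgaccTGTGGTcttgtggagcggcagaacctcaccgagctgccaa
The second window held 2 overlapping NF-kappaB matches (bases 208 to 217 and 209 to 218), an AP-1 match (bases 236 to 242) and a RUNX match (bases 261 to 266), and the first window held none. Of 32851 windows of this length, 4.505% held the NF-kappaB motif, 7.808% the AP-1 motif and 16.76% the RUNX motif. A match is a run of letters and not a measured binding site, and the counts do not tell the 2 starts apart.

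Tnfrsf4 (ENSMUSG00000029075, chr4:156013843-156016612, plus strand) encodes OX40, a costimulator induced on activated CD4 T cells and present on regulatory T cells. Its level was 63.3, 78.1 and 45.8 CPM in CD4 IEL and 2.39, 1.26 and 2.34 CPM in CD8αα from CD4. It was 8.04, 12.9 and 15.1 CPM in CD8αβ IEL and 0.467, 1.70 and 0 CPM in CD8αα from CD8αβ. CD4 IEL were above every other library, and the 2 CD8αα groups overlapped each other. Tnfrsf4 fell in both progenies, with a change of -4.99 ± 0.58 (adjusted p = 2.24e-05) for CD4 progeny and -4.02 ± 0.61 (adjusted p = 0.000198) for CD8αβ progeny. CD8αα from CD8αβ held 21 Tnfrsf4 reads in all, most of them in replicate 2, and without that library the change was -5.48 (adjusted p = 4.66e-05). With only the libraries holding Y-linked transcripts the changes were -4.73 (adjusted p = 0.00127) and -2.81 (adjusted p = 0.0112). The summed level of 4 regulatory T cell genes (Foxp3, Ikzf2, Il2ra and Ctla4) was 847 to 1032 CPM in CD4 IEL against 185 to 242 CPM in their CD8αα counterparts, and 349.5 to 398 CPM in CD8αβ IEL against 110.3 to 156.5 CPM in theirs. Most of that sum was Ctla4, which fell from a mean of 806 to 73.8 CPM and from 325 to 22.9 CPM. Of the 4 genes, 1 rose and 3 fell in CD4 progeny, and 1 rose and 2 fell in CD8αβ progeny, the one that rose being Ikzf2 (72.1 to 129 CPM and 32.9 to 99.5 CPM). The part of these genes in the Tnfrsf4 values was not tested.

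Tnfrsf25 (ENSMUSG00000024793, chr4:152115934-152120119, plus strand) encodes DR3, a death domain receptor that costimulates T cells on binding TL1A. Its level was 29.4, 34.3 and 40.6 CPM in CD4 IEL and 16.8, 6.55 and 9.71 CPM in CD8αβ IEL, from 804 and 242 reads. In CD8αα from CD4 no library held a read, and in CD8αα from CD8αβ the level was 0, 0 and 0.344 CPM, from 3 reads in replicate 3. Both CD8αα groups thus lay below all companions. Tnfrsf25 was at least 239-fold lower in CD8αα from CD4 (floor of 3 counts over the group, adjusted p = 7.19e-06). In CD8αβ progeny the ratio of companions to CD8αα was 102 (95% counting interval 34.5 to 499, adjusted p = 4.12e-05). Both calls were kept with only the libraries holding Y-linked transcripts (adjusted p = 0.000987 and 0.00173). The call in CD8αβ progeny also held without CD8αα from CD8αβ replicate 1 (adjusted p = 0.000271) and replicate 3 (adjusted p = 8.15e-05). With so few reads, however, the fitted log2 value moved from -6.51 to -5.91 without replicate 1 and to -9.45 without replicate 3.

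Fas (ENSMUSG00000024778, chr19:34290659-34327770, plus strand) encodes the death receptor that binds Fas ligand. Its level was 23.0, 34.6 and 34.0 CPM in CD4 IEL and 7.51, 12 and 13.4 CPM in CD8αα from CD4. It was 44.7, 30.5 and 43.9 CPM in CD8αβ IEL and 0.747, 0.531 and 0 CPM in CD8αα from CD8αβ, from 13 reads. The companions overlapped each other, CD8αα from CD4 lay below both, and CD8αα from CD8αβ lay below CD8αα from CD4. Fas fell in both progenies, with a change of -1.47 ± 0.38 (adjusted p = 0.00947) for CD4 progeny and -6.43 ± 0.52 (adjusted p = 6.63e-07) for CD8αβ progeny. The 2 changes differed by 4.96 ± 0.63 (adjusted p = 0.000904, interaction term). Without CD8αα from CD8αβ replicate 1, which held most of that group's Fas reads, the change was -7.09 (adjusted p = 4.45e-06) and the difference 5.63 (adjusted p = 0.00184). With only the libraries holding Y-linked transcripts Fas was not called in CD4 progeny (-1.18, adjusted p = 0.101) and was called in CD8αβ progeny (-6.18, adjusted p = 0.00025), and the changes differed by 5.0 (adjusted p = 0.0371).

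The windows at the starts of Tnfrsf4 (chr4:156013445-156013744), Tnfrsf25 (its first start, chr4:152115684-152115983) and Fas (chr19:34290409-34290708), all on the plus strand, are shown because these 3 receptors fell in both progenies.
Tnfrsf4: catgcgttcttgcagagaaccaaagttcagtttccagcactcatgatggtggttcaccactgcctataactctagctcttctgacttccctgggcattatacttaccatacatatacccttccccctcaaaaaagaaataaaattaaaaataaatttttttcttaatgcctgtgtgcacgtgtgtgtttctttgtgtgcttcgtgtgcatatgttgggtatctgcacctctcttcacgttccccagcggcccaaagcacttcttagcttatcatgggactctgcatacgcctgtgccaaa
Tnfrsf25 first start: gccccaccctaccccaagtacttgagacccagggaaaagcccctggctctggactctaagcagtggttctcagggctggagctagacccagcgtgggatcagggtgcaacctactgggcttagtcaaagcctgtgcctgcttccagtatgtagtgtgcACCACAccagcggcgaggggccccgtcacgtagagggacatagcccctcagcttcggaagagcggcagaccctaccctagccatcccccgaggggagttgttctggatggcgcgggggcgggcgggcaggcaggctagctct
Fas: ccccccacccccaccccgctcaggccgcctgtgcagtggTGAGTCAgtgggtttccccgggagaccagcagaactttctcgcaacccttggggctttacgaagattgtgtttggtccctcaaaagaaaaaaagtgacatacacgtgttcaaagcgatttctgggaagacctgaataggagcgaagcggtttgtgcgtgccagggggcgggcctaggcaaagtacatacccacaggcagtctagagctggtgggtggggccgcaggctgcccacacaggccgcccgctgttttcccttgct
The Tnfrsf25 window held a RUNX match on the reverse strand (bases 159 to 164), the Fas window an AP-1 match (bases 40 to 46), and the Tnfrsf4 window none of the 3 motifs. The second Tnfrsf25 window, not shown, held 0 matches. The 3 windows shown shared none of these motifs. Few windows hold any of them (4.505%, 7.808% and 16.76% of all windows), so this cannot tell the 3 falling receptors from other genes.

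Tnfrsf18 (ENSMUSG00000041954, chr4:156026164-156028895, plus strand) encodes GITR, a costimulator that is high on regulatory T cells and rises on activated T cells. Its level was 94.5, 109 and 93.8 CPM in CD4 IEL and 93.0, 83.5 and 100.3 CPM in CD8αα from CD4, which overlapped. It was 139, 153 and 139.5 CPM in CD8αβ IEL and 170.6, 186 and 183.5 CPM in CD8αα from CD8αβ, with no overlap. Neither change was called, at -0.10 ± 0.13 (adjusted p = 0.588) in CD4 progeny and 0.32 ± 0.13 (adjusted p = 0.0712) in CD8αβ progeny. With only the libraries holding Y-linked transcripts the values were 0.02 (adjusted p = 0.981) and 0.37 (adjusted p = 0.349). Tnfrsf18 lies 9551 bases from the end of Tnfrsf4, its neighbour on the same strand; Tnfrsf4 fell in both progenies and Tnfrsf18 was called in neither. Gm16008, an antisense gene, overlaps Tnfrsf18 and reaches into the stretch between the 2 receptors. Where exons of that gene and of Tnfrsf18 overlap, their reads cannot be told apart without strand, and overlap of exons was not examined. Gm16008 changed by -0.15 (adjusted p = 0.514) and 0.42 (adjusted p = 0.0496) in the same comparisons. Sdf4, the gene before Tnfrsf4, changed by 0.16 (adjusted p = 0.283) and 0.50 (adjusted p = 0.00228).

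Tnfrsf1b (ENSMUSG00000028599, chr4:145213463-145246870, minus strand) encodes TNFR2, which binds TNF and lymphotoxin and has no death domain. Its level was 565, 555 and 457 CPM in CD4 IEL and 387, 349 and 363 CPM in CD8αα from CD4. It was 631, 579.9 and 635 CPM in CD8αβ IEL and 529.8, 461 and 567 CPM in CD8αα from CD8αβ. CD8αα from CD4 lay below all other libraries, while CD4 IEL and CD8αα from CD8αβ overlapped. Tnfrsf1b fell by 0.52 ± 0.12 in CD4 progeny (adjusted p = 0.00579), and the value in CD8αβ progeny was -0.24 ± 0.12 (adjusted p = 0.153). The difference between the 2 changes was not called (-0.28, adjusted p = 0.427). With only the libraries holding Y-linked transcripts neither was called, at -0.53 (adjusted p = 0.163) and -0.41 (adjusted p = 0.284).

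The 2 groups labelled CD8αα were compared with each other, since the title of the series asks how such cells of the 2 progenies differ. Summed T cell genes were low in both, at 77.9 to 145.8 CPM (CD8αα from CD4) and 100.4 to 126 CPM (CD8αα from CD8αβ). Whether these libraries hold progeny of the transferred T cells was not tested, so the values below compare labelled groups. Fas was higher in CD8αα from CD4, and Tnfrsf18 and Tnfrsf1b were lower, so that 1 receptor was called higher and 2 lower, where 1.87% of all genes were higher and 2.47% lower (236 and 312 genes, or 314 and 221 with library totals alone). Libraries did not overlap for 5 receptors, against 28.8% of all genes. Fas differed by 4.58 ± 0.51 (adjusted p = 0.000457), and by 5.25 (adjusted p = 0.00143) without CD8αα from CD8αβ replicate 1. Tnfrsf18 differed by -0.96 ± 0.13 (adjusted p = 0.00141), and Gm16008 on its other strand by -1.02 (adjusted p = 0.0036). Tnfrsf1b differed by -0.50 ± 0.12 (adjusted p = 0.0354), a call that 9 of the 12 fits leaving out 1 library did not keep (adjusted p = 0.0535 to 0.151), namely without each of the 6 CD8αα libraries, CD4 IEL replicate 1 or 2, or CD8αβ IEL replicate 3. Cd27 (-0.68 ± 0.19, adjusted p = 0.066), Tnfrsf9 (-0.90 ± 0.35, adjusted p = 0.179) and Tnfrsf4 (1.41 ± 0.68, adjusted p = 0.291) were not called, and Tnfrsf25 had at most 3 reads in either group. With only the 2 libraries that held Y-linked transcripts, 1 against 1, edgeR called 0 receptors (2 at an unadjusted p under 0.05) and 1 gene of all, and the values were 4.62 for Fas, -0.89 for Tnfrsf18 and -0.35 for Tnfrsf1b.

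CD4 IEL and CD8αβ IEL, whose summed T cell genes lay in overlapping ranges, were compared as the companions. Here 2 receptors were higher in CD4 IEL (Tnfrsf4 and Tnfrsf25) and 3 were lower (Cd27, Tnfrsf9 and Tnfrsf18), where 12.9% of all genes were higher and 16.0% lower (1628 and 2025 genes, or 2309 and 1722 with library totals alone). Libraries did not overlap for 6 receptors, against 41.5% of all genes. Cd27 differed by -3.08 ± 0.21 (adjusted p = 1.69e-06), Tnfrsf9 by -2.40 ± 0.37 (adjusted p = 0.000542) and Tnfrsf18 by -0.54 ± 0.13 (adjusted p = 0.00707). Without CD8αβ IEL replicate 2, the library with the highest Tnfrsf9 of its group, the Tnfrsf9 value was -1.81 (adjusted p = 0.000757). Tnfrsf4 was higher in CD4 IEL by 2.38 ± 0.48 (adjusted p = 0.00314) and Tnfrsf25 by 1.66 ± 0.47 (adjusted p = 0.0211). The Tnfrsf25 call ended without CD4 IEL replicate 2 (adjusted p = 0.0588) or 3 (0.0699), or CD8αβ IEL replicate 2 (0.06) or 3 (0.0563). Tnfrsf1b (-0.23 ± 0.12, adjusted p = 0.179) and Fas (-0.38 ± 0.36, adjusted p = 0.448) were not called. These 4 comparisons share groups, so their values are not independent of each other.

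Levels of different genes were compared per kb of exon. Tnfrsf1b led in CD4 IEL at 137.7 CPM per kb, followed by Tnfrsf18 (65.0) and Tnfrsf4 (45.7), and Tnfrsf25, Cd27, Fas and Tnfrsf9 (15.3, 15.1, 14.8 and 13.9 CPM per kb) overlapped. In CD8αβ IEL the order by CPM per kb was Tnfrsf1b (161), Cd27 (128), Tnfrsf18 (94.6), Tnfrsf9 (73.3), Fas (19.3), Tnfrsf4 (8.80) and Tnfrsf25 (4.83). The libraries of Tnfrsf9 there ran from 38.7 to 122 CPM per kb and overlapped those of Tnfrsf18 and Cd27. In CD8αα from CD4, Tnfrsf1b (95.9 CPM per kb) and Tnfrsf9 (95.5) were level with each other, and in CD8αα from CD8αβ, Tnfrsf9 led at 178 CPM per kb over Tnfrsf1b (136). In CD4 IEL, Tnfrsf9 thus made up 4.54% of the summed CPM per kb of the 7 receptors. Its share was 33.0% for the CD8αα libraries of CD4 progeny. In CD8αβ progeny the shares were 15.0% and 37.0%, and without CD8αβ IEL replicate 2 the former was 10.5%, at 48.7 CPM per kb.

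**Figure D3:**
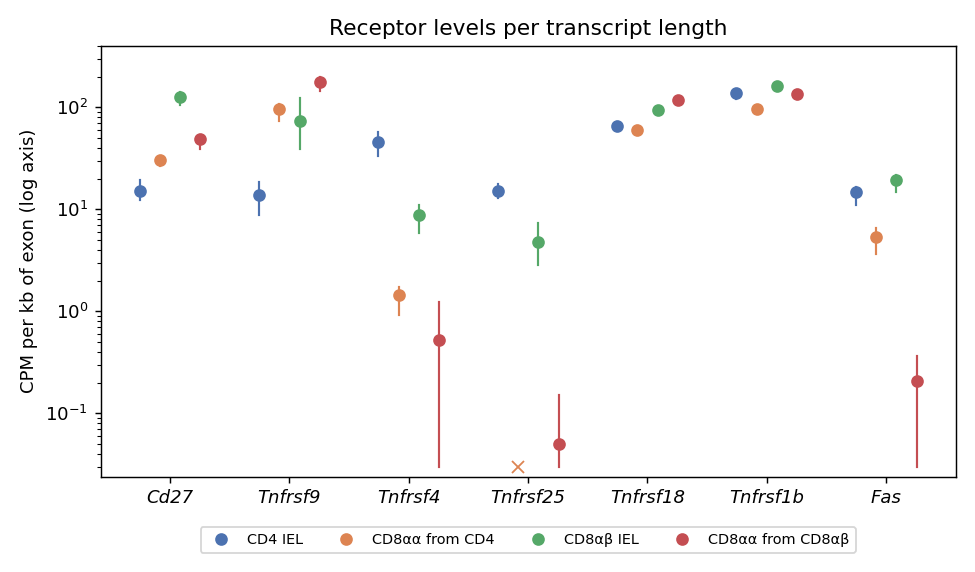
Level of each receptor per kb of exon (log axis) in the 4 groups; circles are means, lines run from the lowest to the highest library and the cross marks a group with 0 reads (lines of groups with a library at 0 end at the foot of the axis). Tnfrsf1b lay between 95.9 and 161 CPM per kb in all groups, while Tnfrsf4 ran from 45.7 in CD4 IEL to 0.529 in CD8αα from CD8αβ.

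Of the 8 ligands of these receptors, 5 were tested. Tnf, Lta and Tnfsf9 fell in both CD8αα groups and Fasl rose in both, which made 1 higher and 3 lower in CD4 progeny and, with Tnfsf4, 1 higher and 4 lower in CD8αβ progeny. Over all genes tested, 15.0% were higher and 13.5% lower in CD4 progeny. In CD8αβ progeny 16.1% were higher and 15.1% lower. Tnf, the ligand of Tnfrsf1b, was 187, 128 and 196 CPM in CD4 IEL and 5.97, 4.12 and 4.05 CPM in CD8αα from CD4. In CD8αβ IEL it was 149.6, 119 and 143.5 CPM, and in CD8αα from CD8αβ 10.3, 9.35 and 11.1 CPM, so that no companion library overlapped a CD8αα library. The changes of Tnf were -5.18 (adjusted p = 7.27e-09) and -3.74 (adjusted p = 3.03e-08), with a difference between the changes of -1.44 ± 0.29 (adjusted p = 0.0201). Lta, the lymphotoxin that also binds Tnfrsf1b, fell, with changes of -3.42 (adjusted p = 0.00059) and -3.55 (adjusted p = 0.000338).

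Tnfsf9, the ligand of Tnfrsf9, was 25.6 ± 1.11 CPM in CD4 IEL and 8.95 ± 0.491 CPM in CD8αα from CD4 (SD, n = 3). In CD8αβ IEL it was 80.7 ± 4.70 CPM, and in CD8αα from CD8αβ 17.3 ± 3.4 CPM. Its changes were -1.51 (adjusted p = 3.67e-05) and -2.22 (adjusted p = 6.85e-07), the direction opposite to that of its receptor. Fasl, the ligand of Fas, was 467 ± 59.99, 738 ± 66.1, 358 ± 32.9 and 555 ± 44.4 CPM in those 4 groups. It rose by 0.66 (adjusted p = 0.00178) and by 0.63 (adjusted p = 0.00209) where Fas fell. Tnfsf4, the ligand of Tnfrsf4, was 12.8, 20.4 and 15.6 CPM in CD8αβ IEL and 1 read in all was counted in CD8αα from CD8αβ. The ratio was 481, with a 95% counting interval of 85.8 to 19050 (adjusted p = 0.000397). It was not called in CD4 progeny (-0.71, adjusted p = 0.658). Ligands of the remaining receptors were next to absent: Cd70 had 10 reads, all in CD8αβ IEL, Tnfsf15 had 3 reads in all and Tnfsf18 had 0.

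**Figure D4:**
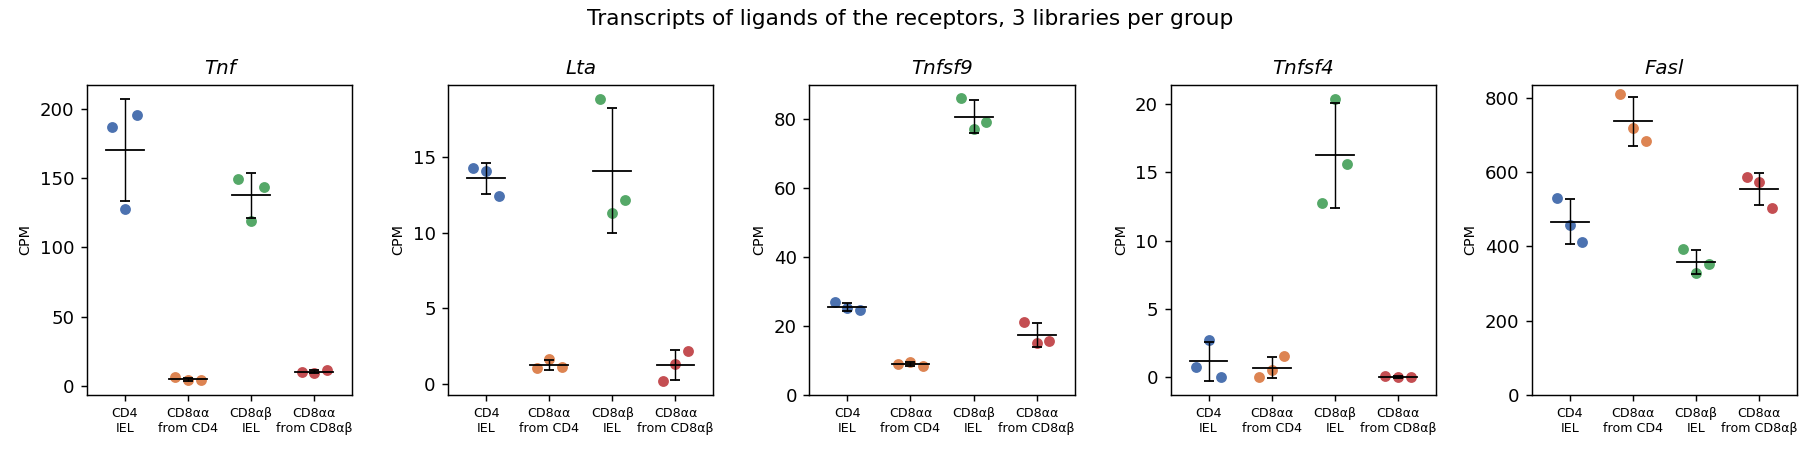
Level of 5 ligand transcripts (CPM) in the 4 groups; points are libraries, the long line is the mean and the bar is the SD. Tnf, Lta and Tnfsf9 were lower, and Fasl higher, in the CD8αα libraries than in their companions.

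Of the 23 adaptors and regulators next to these receptors, 2 rose and 10 fell in CD4 progeny, and 3 rose and 7 fell in CD8αβ progeny. Beside the shares of all genes called (15.0% and 13.5%, then 16.1% and 15.1%), the rises lie below the background. The median of the 23 was -0.34 and -0.13, against 0.02 and 0.00 over all genes. Nfkbia, the NF-kappaB inhibitor that is itself an NF-kappaB target, changed by -2.53 (adjusted p = 9.09e-07) and -2.19 (adjusted p = 2.31e-06), from means of 699 and 897 CPM to 121 and 196 CPM. Tnfaip3, an inhibitor of TNF receptor signalling, changed by -1.85 (adjusted p = 0.00188) and -1.11 (adjusted p = 0.031), and Tank, a TRAF-binding regulator, by -1.26 and -1.59. Fadd, the adaptor of Fas, rose by 0.99 (adjusted p = 0.00246) and by 1.13 (adjusted p = 0.000828). Of the same list, Cflar changed by -0.77 (adjusted p = 0.0117) and -0.82 (adjusted p = 0.00766), and Casp8, the caspase-8 gene, was called in neither progeny. Siva1, a protein that binds the tail of CD27, rose by 2.03 (adjusted p = 2.16e-05) and by 0.77 (adjusted p = 0.0169). In CD8αα from CD4 against CD8αα from CD8αβ, 1 was higher (Ripk1, 0.82) and 2 were lower (Traf4, -0.72, and Nfkb2, -0.67). Of all genes, 1.87% were higher and 2.47% lower in that comparison.

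**Figure D5:**
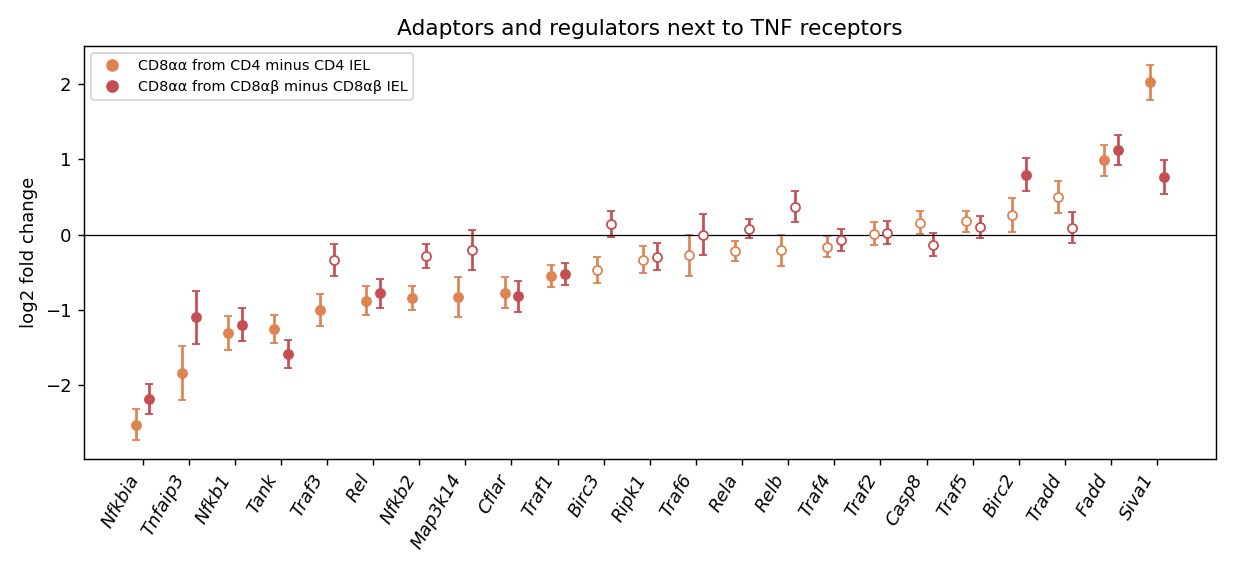
Change of 23 adaptors and regulators in the 2 groups labelled CD8αα (log2 fold change, bars are SE), ordered by the change in CD4 progeny; filled circles passed the test. Nfkbia, Tnfaip3, Nfkb1, Tank, Rel, Cflar and Traf1 fell and Siva1 and Fadd rose in both progenies.

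Among 21 other receptors of the superfamily, 13 were tested, of which 4 rose and 2 fell in CD4 progeny and 3 rose and 2 fell in CD8αβ progeny. Over all genes tested, 15.0% rose and 13.5% fell in CD4 progeny. In CD8αβ progeny 16.1% rose and 15.1% fell. The falls of the 13 lie near these shares. Tnfrsf1a, the death domain receptor of TNF, rose by 0.83 (adjusted p = 0.0016) and by 1.52 (adjusted p = 9.54e-06), the direction opposite to the values of Tnfrsf1b. Ltbr, the lymphotoxin beta receptor, rose by 5.65 (adjusted p = 0.00137) and by 4.28 (adjusted p = 0.00307), from at most 3.13 CPM in a companion library to 12.5 to 25.4 CPM. Tnfrsf26 fell, with changes of -4.42 (adjusted p = 1.06e-05) and -3.79 (adjusted p = 2.63e-05). Tnfrsf8 (CD30) was at least 71.7-fold lower in CD8αα from CD4, and Tnfrsf23 at least 15.2-fold lower in CD8αα from CD8αβ. None of the 13 was called between the 2 CD8αα groups, where 1.87% of all genes were higher and 2.47% lower.

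The genes whose pattern was most like each receptor were found by the root mean square difference of log2 CPM over the 12 libraries, each gene centred on its own mean, among 11095 genes. For Tnfrsf9 these were Lgals3 (0.28), Cd200r4 (0.38) and Art4 (0.42), and Lgals3 had means of 63.5 and 455 CPM in CD4 IEL and their CD8αα counterparts and of 251 and 708 CPM in CD8αβ progeny. For Tnfrsf4 they were Ccr2 (0.76), Il7r (0.83) and Cdon (0.85), for Tnfrsf25 Cpm (0.48), Synj2 (0.53) and Slamf1 (0.60), and for Fas Ptpn13 (0.80), Itga4 (0.83) and Trps1 (0.84). Those of Cd27 were Mrpl30 (0.47), Atp5g1 (0.48) and Hspb11 (0.48), those of Tnfrsf18 Wdr61 (0.14), Mrps18a (0.15) and Tigit (0.16), and those of Tnfrsf1b Evi2a (0.12), Snapc1 (0.12) and Tor1aip2 (0.13). Among the 7 themselves, Tnfrsf18 and Tnfrsf1b were closest to each other (0.34), both with a small spread around their own means (0.40 and 0.29), and Tnfrsf4 lay 1.5 from both Fas and Tnfrsf25. The points share their libraries and depth, so these distances are descriptions.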

How the data were processed

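The authors deposited 1 table of whole-number read counts per gene for the 12 libraries. Reads were aligned with HISAT2 2.1.0 to mm10, per the submitters' processing notes; the counting program, its annotation and its use of strand: not given in the sources used here. Of 25965 table entries, 66 with a repeated symbol were left out (0.0202% of counts). Genes were kept with filterByExpr (minimum count 10, minimum total 15), scaled by TMM and tested, two-sided, with edgeR 4.0.16 in R 4.3.3, with 1 mean per group and Benjamini-Hochberg adjustment over 12622 genes. The test was tried on simulated counts first. For a group with 0 reads a fold is a bound against 3 counts over the group; with 1 to 3 reads the ratio has an exact 95% interval. Floors and intervals cover counting error only. Named genes were the 7 receptors, label checks, all ligands, up to 3 called genes of each list with the largest change per comparison, the 3 most similar genes per receptor and the neighbours of Tnfrsf4 and Tnfrsf18. Fadd, Tnfrsf1a, Cflar, Casp8, Rel, Traf1 and, in the comparisons where they are not among those 3, Tank, Tnfaip3, Siva1 and Nfkb1 were named after their values were seen. The receptors and lists were chosen with earlier results of these data known. Promoter windows came from RefSeq (GRCm38.p6), which matched all 7 receptors. Alternatives were DESeq2 1.42.0, other scalings, no filter, only the groups compared, a replicate block, leaving out each library and leaving out CD8αα libraries without Y-linked transcripts. Results of 1 further marker list are not reported here.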

Additional observations from a re-analysis of the deposited data

Results flagged for a closer look

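The changes of Cd27 and Fas in the CD8αα libraries differed between the 2 progenies by the interaction term of edgeR's quasi-likelihood test. For Cd27 the change in CD4 progeny was higher than that in CD8αβ progeny by 2.4 on the log2 scale (adjusted p = 0.000424), with all 3 libraries of CD8αα from CD4 above all CD4 IEL and all 3 of CD8αα from CD8αβ below all CD8αβ IEL. For Fas the difference was 4.96 (adjusted p = 0.000904), with a fall in both progenies. With only the CD8αα libraries that held Y-linked transcripts, the Cd27 difference was not called and the Fas difference was, from a lone library in each CD8αα group. In both groups labelled CD8αα the T cell genes were low, and the part of this in either difference was not tested.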

How the results depend on the processing

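The number of receptors called stayed within 1.5 times of that reported under all alternatives run, except in 2 comparisons. In CD8αα from CD4 against CD8αα from CD8αβ it was 3, and became 5 with only the 2 groups compared (6 receptors with a value), 5 with the replicate block and 0 with only the CD8αα libraries that held Y-linked transcripts; 4.34% of all genes were called, and 8.15%, 5.25% and 0.00747% in those settings. For the difference between the changes of the 2 progenies it was 2, and became 1 with those libraries. In that setting Tnfrsf18 in CD8αα from CD4 against CD4 IEL turned from -0.10 to 0.0168, neither called. The difference between the Tnfrsf4 changes, not called, ran from -1.51 to 0.49 when single libraries were left out, and was above 0 without CD8αα from CD8αβ replicate 2. Between the CD8αα groups Tnfrsf1b lost its call with library totals alone (adjusted p = 0.088) and without the filter (0.0558). There Cd27 gained a call with DESeq2 (0.0226), the 2 groups alone (0.031), the replicate block (0.0298) and without CD8αα from CD8αβ replicate 1 (0.0404), and Tnfrsf9 with the 2 groups alone (0.012), the block (0.0297) and without CD8αβ IEL replicate 2 (0.0493). The difference between the Tnfrsf9 changes gained a call with DESeq2 (0.0352), the block (0.0313) and without CD8αβ IEL replicate 1 (0.0447). The cause was not tested. Same-numbered libraries correlated at -0.0214 to 0.326 after removing group means. The highest values were in CD8αα from CD8αβ against CD8αβ IEL, at 0.205, 0.326 and 0.0978 for replicates 1, 2 and 3. Whether libraries are paired by number is not stated in the labels, and the main fit held no replicate block. DESeq2 called 1025 genes of all between the CD8αα groups, against 548, and 806 for the difference between changes, against 323. Library totals alone moved the median of all genes in CD4 IEL against CD8αβ IEL from 0.01 to 0.13. Few reads limit Tnfrsf25, Tnfrsf4 and Fas in the CD8αα groups.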

Other observations

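Between the companions, CD4 IEL and CD8αβ IEL, 7 of the 23 adaptors and regulators were higher in CD4 IEL and 2 lower, by edgeR's quasi-likelihood test, where 12.9% of all genes were higher and 16.0% lower. Birc3, a ubiquitin ligase of TNF receptor complexes, was higher by 1.09 (adjusted p = 0.000638) and Tnfaip3 by 1.10 (adjusted p = 0.035), while Siva1 was lower (-1.59, adjusted p = 0.000354). Of the 13 other receptors tested, 2 were higher and 4 lower, among them Tnfrsf12a (-2.33, adjusted p = 0.0469), Tnfrsf21 (-2.33, adjusted p = 0.0275) and Tnfrsf13c (-1.71, adjusted p = 0.0159). Of the ligands, Tnfsf4 (-3.77, adjusted p = 0.0114) and Tnfsf9 (-1.66, adjusted p = 5.7e-05) were lower in CD4 IEL and Fasl was higher (0.38, adjusted p = 0.0412).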
